A study of Mus musculus with 8 samples.

Results

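The identity of intestinal epithelium is set and kept by a small set of transcription factors acting together, several of which also work in colon, stomach or liver. Those followed here in mouse small intestinal organoids were 9 genes: Cdx1, Cdx2, Hnf4a, Hnf4g, Gata4, Gata6, Klf4, Klf5 and Sox9. They were chosen by gene symbol, with earlier results of these data known, and all 9 were found among the 54532 genes listed in the count table. Bulk 3′ mRNA sequencing covered 8 libraries, 4 from control organoids and 4 from organoids treated with RANKL, the ligand of the receptor RANK. Organoids are epithelial structures grown from intestinal crypts in a gel, in medium with EGF, NOGGIN and R-spondin, apart from the surrounding stroma and immune tissue. The study asked what RANK signalling does to the intestinal epithelium, and here the comparison asks whether the factors that set intestinal identity changed. The labels give no genotype, age, sex, dose or treatment time for these libraries, and nothing states that replicates came from separate mice, so p-values measure the spread between these samples, which may be technical.

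CDX1 and CDX2 are homeodomain factors that specify intestine, and CDX1 is also a known target of WNT signalling. HNF4A and HNF4G are nuclear receptors that switch on genes of lipid handling and of the brush border in enterocytes, GATA4 sets the character of the proximal small intestine, and GATA6 acts along its length. KLF4 is associated with differentiated cells and exit from the cell cycle, KLF5 with dividing crypt cells, and SOX9 with the crypt base, where it is needed for Paneth cells.

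Promoter sequence is shown for Klf4, which fell with RANKL, and for Cdx2, which did not pass the test, so that the upstream letters can be read beside these different outcomes. RefSeq windows around the start site on GRCm38.p6 were searched for Cdx2, Klf4 and Hnf4a only. Each window runs from 250 bases before to 50 bases after the start site. Whether the other factors have such a window is not reported here. The 180 bases below, from the minus strand at chr5:147307271-147307450 for Cdx2 and at chr4:55532476-55532655 for Klf4, lie upstream of the exons. Capitals mark a match to the NF-κB motif.
Cdx2: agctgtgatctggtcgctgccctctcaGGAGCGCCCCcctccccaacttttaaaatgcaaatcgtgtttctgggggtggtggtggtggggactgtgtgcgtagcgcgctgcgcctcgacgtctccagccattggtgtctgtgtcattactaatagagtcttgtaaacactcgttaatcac
Klf4: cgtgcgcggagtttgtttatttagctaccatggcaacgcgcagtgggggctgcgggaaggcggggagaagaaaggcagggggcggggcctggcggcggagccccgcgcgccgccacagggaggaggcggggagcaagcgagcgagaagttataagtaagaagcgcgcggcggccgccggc

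The Cdx2 window held the NF-κB match at position -174 from the start site, both strands having been searched. Among all 32841 RefSeq windows of the same length, 8.46% held an NF-κB match. The Klf4 window held none of the motifs searched. Besides NF-κB, the letters TTTATNG were searched for CDX factors (in 10.9% of all windows), CAAAGTCCA for HNF4 (0.475%), CCCCACCC (9.99%) or CCACACCC (3.56%) for KLF factors and ACAATG for SOX factors (12.6%). The GATA motif was taken as GATAA. Hnf4a had 2 windows, since its transcripts begin at start sites 40298 bases apart. The upstream window held GATAA at position -51, a motif found in 25.4% of all windows, and the downstream window held none of the motifs. Reads near the 3′ end do not separate transcripts that differ in their start site. A match is a description of the letters only.

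Total counts per library ran from 583663 to 7807298, a 13.4-fold range, and the 2 shallowest libraries were control replicate 4 and RANKL replicate 1. Levels are given as CPM, the counts of a gene relative to all counts of its library, scaled by TMM factors. The kit primes on the poly(A) tail, so counts do not grow with transcript length by design, and levels of different genes are set side by side in CPM. All 9 factors were among the 9971 genes that passed the filter on low counts. The factors' totals ran from 227 counts over the 4 RANKL libraries for Gata4 to 9285 over the 4 control libraries for Sox9. The organoids carried the epithelial genes Cdh1 (3472 ± 388 CPM in control, SD, n = 4) and Epcam (1032 ± 38.4 CPM). Of 11 immune markers, 5 were at 0 in all libraries, among them Cd3e and Cd79a, and the list summed to 3.44 to 8.87 CPM in control and 4.13 to 14.5 CPM in RANKL libraries. Of 13 stromal and endothelial markers, Dcn, Cdh5 and Kdr were at 0, and the list summed to 17.2 to 53.3 CPM and 32.3 to 48.4 CPM. Of the 2 tested, Pdgfrb was higher with RANKL, at 3.87 ± 1.63 against 19.0 ± 2.99 CPM (SD, n = 4 each). Over all genes tested, 13.6% were higher. The control libraries alone would not have carried Pdgfrb past the filter, so its place among the tested genes rests on its RANKL libraries. With at least 10 counts required in every library, 0 stromal and endothelial markers were higher.

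Cdx1 and Sox9 were higher with RANKL, Klf4 and Hnf4g were lower, and the other 5 factors did not pass the threshold, an adjusted p of 0.05 in edgeR's quasi-likelihood test with Benjamini-Hochberg adjustment. Thus 4 of 9 factors passed, 2 in each direction, where 25.9% of the 9971 genes tested passed, 13.6% higher and 12.4% lower. The same 4 factors were those whose control and RANKL libraries did not overlap, a separation found for 24.6% of the genes tested. These counts are too few to set the 9 factors apart from other genes. In bulk samples fewer cells of a type and less RNA per cell cannot be told apart, so every level below is an average over the cells of a culture.

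**Figure D1:**
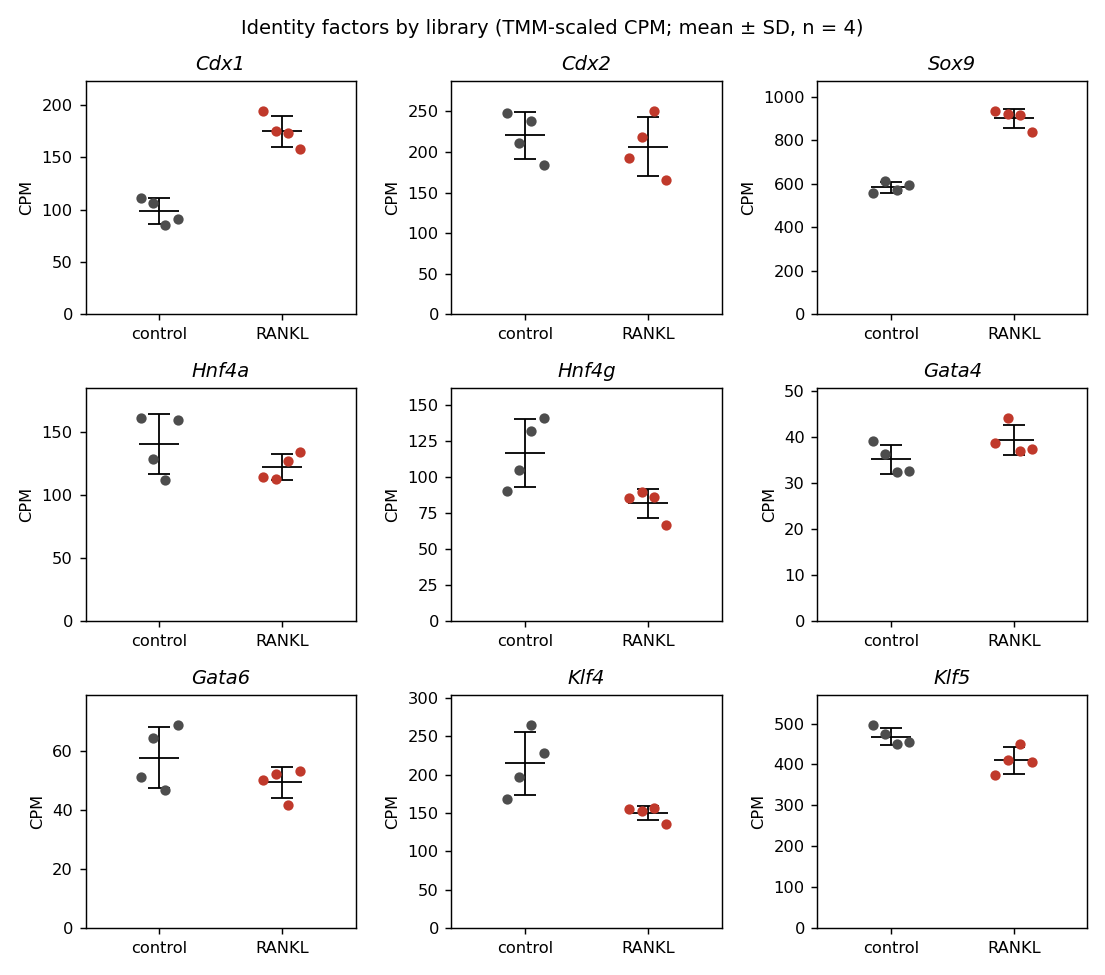
Level of each of the 9 factors in every library, in TMM-scaled CPM on a linear axis from 0, with control libraries in grey and RANKL libraries in red, and the mean and SD of 4 libraries as bars. Cdx1 and Sox9 lie wholly above the control range in RANKL libraries and Klf4 and Hnf4g wholly below it, while the points of the other 5 factors overlap.

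Among the CDX factors, the library values moved apart for Cdx1 only. Cdx1 (ENSMUSG00000024619, chr18:61018862-61036199 on GRCm38) read 111, 107, 85.1 and 91.1 CPM in control replicates 1 to 4 and 194, 176, 173 and 158 CPM in RANKL replicates 1 to 4, an order kept for all genes below. The lowest treated library exceeded the highest control library. From a control mean of 98.6 ± 12.4 CPM (SD, n = 4) it rose to 175.0 ± 14.8 CPM (SD, n = 4) and the fitted log2 change was 0.79 (SE 0.11, 95% interval 0.56 to 1.03, edgeR adjusted p = 2.6e-06), and an exact two-sided permutation test over 70 assignments gave p = 0.0286, the smallest that 4 against 4 libraries allow. The change was larger in size than that of 90.6% of the genes tested.

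Cdx2 (ENSMUSG00000029646, chr5:147300805-147307270), the CDX gene without which intestinal epithelium takes on gastric features, read 248, 211, 238 and 184 CPM across the control libraries and 192, 218, 249.8 and 166 CPM across the RANKL libraries. The highest and the lowest value of all 8 both belonged to RANKL libraries, and the groups overlapped over almost their whole range. The log2 fold change was -0.11 (SE 0.12, 95% interval -0.35 to 0.13, edgeR adjusted p = 0.53), so the data leave room for a modest change in either direction.

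The difference between these related genes was tested as a ratio within each library. The Cdx2 to Cdx1 ratio was 2.23, 1.98, 2.79 and 2.01 in control libraries and 0.992, 1.24, 1.44 and 1.05 in RANKL libraries. The ratios did not overlap, and in RANKL replicate 1 the genes were at nearly the same level. The mean log2 ratio was lower by 0.93 on the log2 scale in RANKL libraries (difference -0.93, SE 0.17, exact two-sided permutation p = 0.0286). This is the smallest p that 4 against 4 libraries allow, and adjusted over the 4 pairs compared it became 0.114. At least 3 of the 4 pairs would have to reach the smallest p for any to pass after adjustment, so missing the threshold says nothing about the size of this difference. Without control replicate 1 the adjusted exact permutation p was 0.0381, although the difference stayed at -0.93. The Gata6 to Gata4 and Klf5 to Klf4 pairs had the same adjusted p there, which lowered the adjusted value for all 3. Leaving out any other single library gave an adjusted exact permutation p of 0.114.

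The HNF4 receptors both averaged lower with RANKL, but the test called Hnf4g alone. Hnf4g (ENSMUSG00000017688, chr3:3508030-3658052) read 90.1, 105, 132 and 141 CPM across the control libraries and 85.6, 89.5, 86.1 and 67.0 CPM across the RANKL libraries. The groups were separate by a narrow margin, with the lowest control library at 90.1 CPM and the highest RANKL library at 89.5 CPM. From a control mean of 117 ± 23.6 CPM (SD, n = 4) it fell to 82.0 ± 10.2 CPM (SD, n = 4) and the fitted log2 change was -0.48 (SE 0.14, 95% interval -0.76 to -0.19, edgeR adjusted p = 0.010, exact two-sided permutation p = 0.0286). This call rested on RANKL replicate 4, the lowest library: without it the log2 fold change was -0.38 and the edgeR adjusted p was 0.0744. It also missed a stricter threshold of 0.01, which 16.4% of all genes tested and the other 3 called factors met.

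Hnf4a (ENSMUSG00000017950, chr2:163506808-163572910) read 161, 129, 112 and 159.9 CPM across the control libraries and 115, 113, 127 and 134 CPM across the RANKL libraries. The control libraries were spread more widely than the RANKL libraries and enclosed all of them. Its log2 fold change was -0.17 (SE 0.12, 95% interval -0.42 to 0.08, edgeR adjusted p = 0.33). The Hnf4g to Hnf4a ratio was 0.83 in control and 0.67 in RANKL libraries (geometric means), a log2 difference of -0.31 (SE 0.27, exact two-sided permutation p = 0.286), so a different response of the 2 receptors was not shown. The difference was -0.14 without control replicate 3, -0.17 without RANKL replicate 4 and -0.50 without control replicate 1.

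The GATA factors had the lowest levels of the 9, and neither passed the test. Gata4 (ENSMUSG00000021944, chr14:63198922-63271692) read 39.1, 36.2, 32.4 and 32.7 CPM across the control libraries and 38.7, 44.0, 37.0 and 37.3 CPM across the RANKL libraries. Gata6 (ENSMUSG00000005836, chr18:11052064-11085635) read 51.1, 64.4, 46.9 and 68.8 CPM across the control libraries and 50.0, 52.3, 41.7 and 53.3 CPM across the RANKL libraries. The groups overlapped for both genes.

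Gata4 had a log2 fold change of 0.13 (95% interval -0.18 to 0.44, edgeR adjusted p = 0.58) and Gata6 one of -0.18 (95% interval -0.48 to 0.12, edgeR adjusted p = 0.41). The Gata6 to Gata4 ratio went from 1.62 to 1.25, with a log2 difference of -0.38 (SE 0.17, exact two-sided permutation p = 0.0571, 0.114 adjusted over 4 pairs). Without control replicate 1 the log2 difference was -0.48, with an adjusted exact permutation p of 0.0381.

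**Figure D2:**
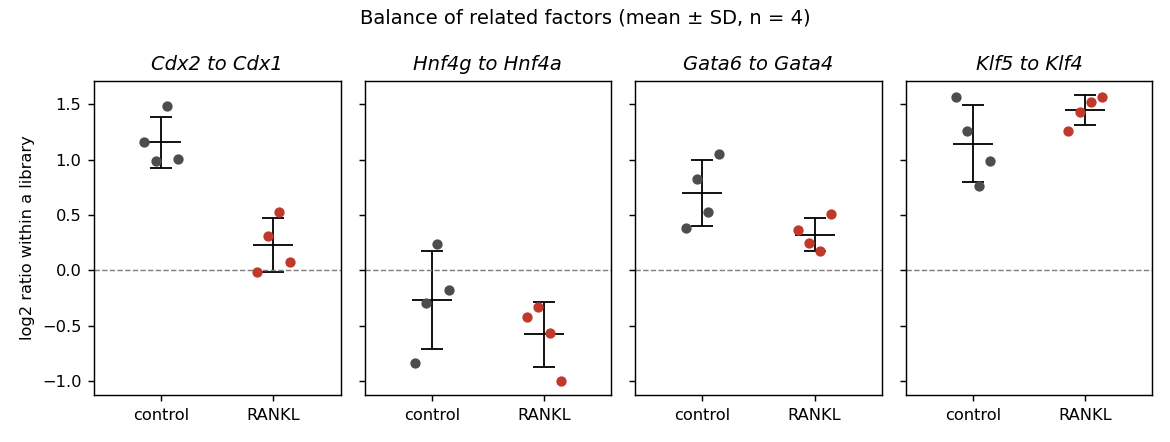
Log2 ratio of related factors within each library (Cdx2 to Cdx1, Hnf4g to Hnf4a, Gata6 to Gata4, Klf5 to Klf4), control in grey and RANKL in red, with the mean and SD of 4 libraries and a dashed line at equal levels. The Cdx2 to Cdx1 ratios are separate between the groups, and those of the other 3 pairs overlap.

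Of the Krüppel-like factors, Klf4 fell and Klf5 had a smaller difference that did not pass. Klf4 (ENSMUSG00000003032, chr4:55527143-55532466) read 168, 197, 265 and 229 CPM across the control libraries and 155, 152, 157 and 136 CPM across the RANKL libraries. The RANKL libraries lay close together and below every control library, and the control libraries were spread widely. From a control mean of 215 ± 41.6 CPM (SD, n = 4) it fell to 150.1 ± 9.45 CPM (SD, n = 4) and the fitted log2 change was -0.51 (SE 0.12, 95% interval -0.76 to -0.26, edgeR adjusted p = 0.0022, exact two-sided permutation p = 0.0286). With each library left out in turn it ran from -0.63 to -0.36 and stayed past the threshold.

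Klf5 (ENSMUSG00000005148, chr14:99298691-99315036) read 496, 473, 449 and 454 CPM across the control libraries and 373, 410.2, 451 and 405 CPM across the RANKL libraries. All but RANKL replicate 3 of the treated libraries were below the control range. The log2 fold change was -0.19 (SE 0.09, 95% interval -0.38 to 0.0029, edgeR adjusted p = 0.14, exact two-sided permutation p = 0.0571). The Klf5 to Klf4 ratio was 2.21 in control and 2.72 in RANKL libraries, a log2 difference of 0.30 (SE 0.19, exact two-sided permutation p = 0.171, 0.229 adjusted over 4 pairs), and 0.44 without control replicate 1, where the adjusted exact permutation p was 0.0381. Short runs of 50 bases are shared by Klf4 and Klf5 with other listed genes, 8 runs of 3047 and 4 of 5151, but 0 of them lie in the last 500 bases, where these reads fall.

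Sox9 (ENSMUSG00000000567, chr11:112782224-112787760) was the most abundant of the 9 in every library and rose further. It read 559.8, 615, 570.4 and 593 CPM across the control libraries and 933, 921, 915 and 839 CPM across the RANKL libraries. The groups were far apart relative to the spread within each. From a control mean of 585 ± 24.6 CPM (SD, n = 4) it rose to 902 ± 42.8 CPM (SD, n = 4), 1.54-fold, and the fitted log2 change was 0.63 (SE 0.09, 95% interval 0.44 to 0.81, edgeR adjusted p = 3.1e-06, exact two-sided permutation p = 0.0286), and it stayed between 0.60 and 0.66 with each library left out in turn.

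**Figure D3:**
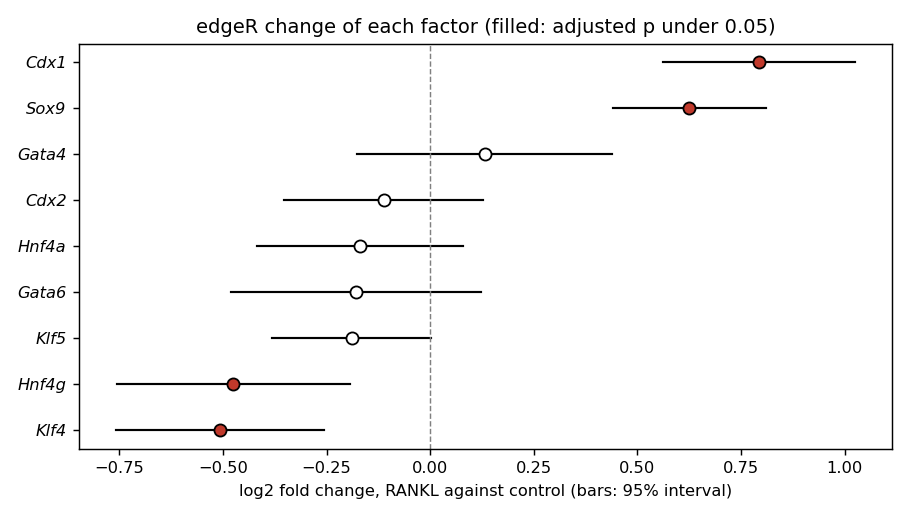
Log2 fold change of each factor, RANKL against control, from the edgeR fit over all genes, with 95% intervals. Filled points passed an adjusted p of 0.05, and the intervals of the 5 open points include 0.

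In control libraries the mean levels ran in the order Sox9, Klf5, Cdx2, Klf4, Hnf4a, Hnf4g, Cdx1, Gata6 and Gata4, with overlapping ranges between Cdx2 and Klf4, Hnf4a and Hnf4g, and Hnf4g and Cdx1. In RANKL libraries Cdx1 stood above Klf4, Hnf4a and Hnf4g, and its range overlapped that of Cdx2. The 9 factors summed to 1925 to 1954 CPM in control and to 1995 to 2238 CPM in RANKL libraries, a sum in which Sox9 is the largest term.

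Other members of the same families were read from the same fit, in which 25.9% of all genes tested were called, 13.6% higher and 12.4% lower. Of 19 SOX genes, 6 were tested, and Sox4, Sox8 and Sox9 were higher. Sox4, expressed in progenitor cells of the crypt, read 397, 417, 433 and 428 CPM across the control libraries and 857, 864, 873 and 749.7 CPM across the RANKL libraries. The libraries did not overlap, and its log2 fold change of 1.00 (SE 0.09, edgeR adjusted p = 7.4e-10) was larger than that of Sox9. Sox8, a factor of M cell maturation, had 3 counts over the 4 control and 66 over the 4 RANKL libraries, a ratio of 61.0 after scaling for depth (exact 95% interval 19.98 to 303, counting error only). Sox8 passed the filter on low counts through the RANKL libraries only, so its place among the tested SOX genes rests on being high there. The other 3 tested SOX genes did not pass, and 9 of the 19, among them the gastric and foregut factor Sox2, had 0 counts in all libraries.

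Of 17 KLF genes, 9 were tested. Besides Klf4, Klf3, a transcriptional repressor, fell, from 177, 195, 214 and 220 CPM to 109.8, 120.4, 147 and 121 CPM, with no overlap (log2 fold change -0.66, SE 0.11, edgeR adjusted p = 3.9e-05). Klf9 rose from 6.51 ± 2.45 to 13.4 ± 3.37 CPM (SD over 4 libraries in each group, log2 change 1.08, SE 0.30, edgeR adjusted p = 0.0068). Its control libraries alone would not have carried it past the filter on low counts, control replicate 3 being at 3.04 CPM. The call of Klf9 as higher therefore rests partly on selection through the RANKL libraries. Klf6, which was named after its value was seen, lay at the edge with a log2 fold change of 0.26 (edgeR adjusted p = 0.050), and passed under other settings, which made the count of higher KLF genes 2 in place of 1. The median log2 fold change of the 9 was -0.21, against 0.0002 over all genes tested. None of the 3 tested GATA genes passed, Gata5 standing at 0.28 (95% interval -0.15 to 0.70), and Cdx4 had 0 counts.

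Of 16 factors that work beside the 9 in gut epithelium, 14 were tested, of which 4 were higher, 4 lower and 6 not past the threshold, with a median log2 fold change of 0.02. Over all genes tested, 13.6% were higher and 12.4% lower. The FOXA factors, which open chromatin in endoderm, did not move together. Foxa3 fell from 322, 339, 390 and 413 CPM to 203, 232, 225 and 170 CPM (log2 fold change -0.80, SE 0.11, edgeR adjusted p = 1.4e-06), while Foxa2 rose from 43.2 ± 4.61 to 64.7 ± 8.75 CPM (SD over 4 libraries in each group, log2 change 0.59, edgeR adjusted p = 0.0017). Foxa1 rose at a low level, from 5.97 ± 2.51 to 12.5 ± 2.38 CPM (SD over 4 libraries in each group, log2 change 1.18, edgeR adjusted p = 0.0027). With 3.22 and 4.56 CPM in control replicates 2 and 3, its control libraries alone would not have carried it past the filter on low counts. Its place among the 4 higher partners rests partly on being high in RANKL libraries.

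Mecom fell (log2 fold change -0.95, SE 0.18), as did Elf3, an epithelial ETS factor (-0.49, SE 0.11). Tcf7l2, a nuclear partner of β-catenin, was higher (0.42, SE 0.10). The others past the threshold were named after their values were seen: Onecut2 was higher (0.56, SE 0.10) and Zfpm1, a cofactor of GATA factors, was lower (-0.57, SE 0.14).

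**Figure D4:**
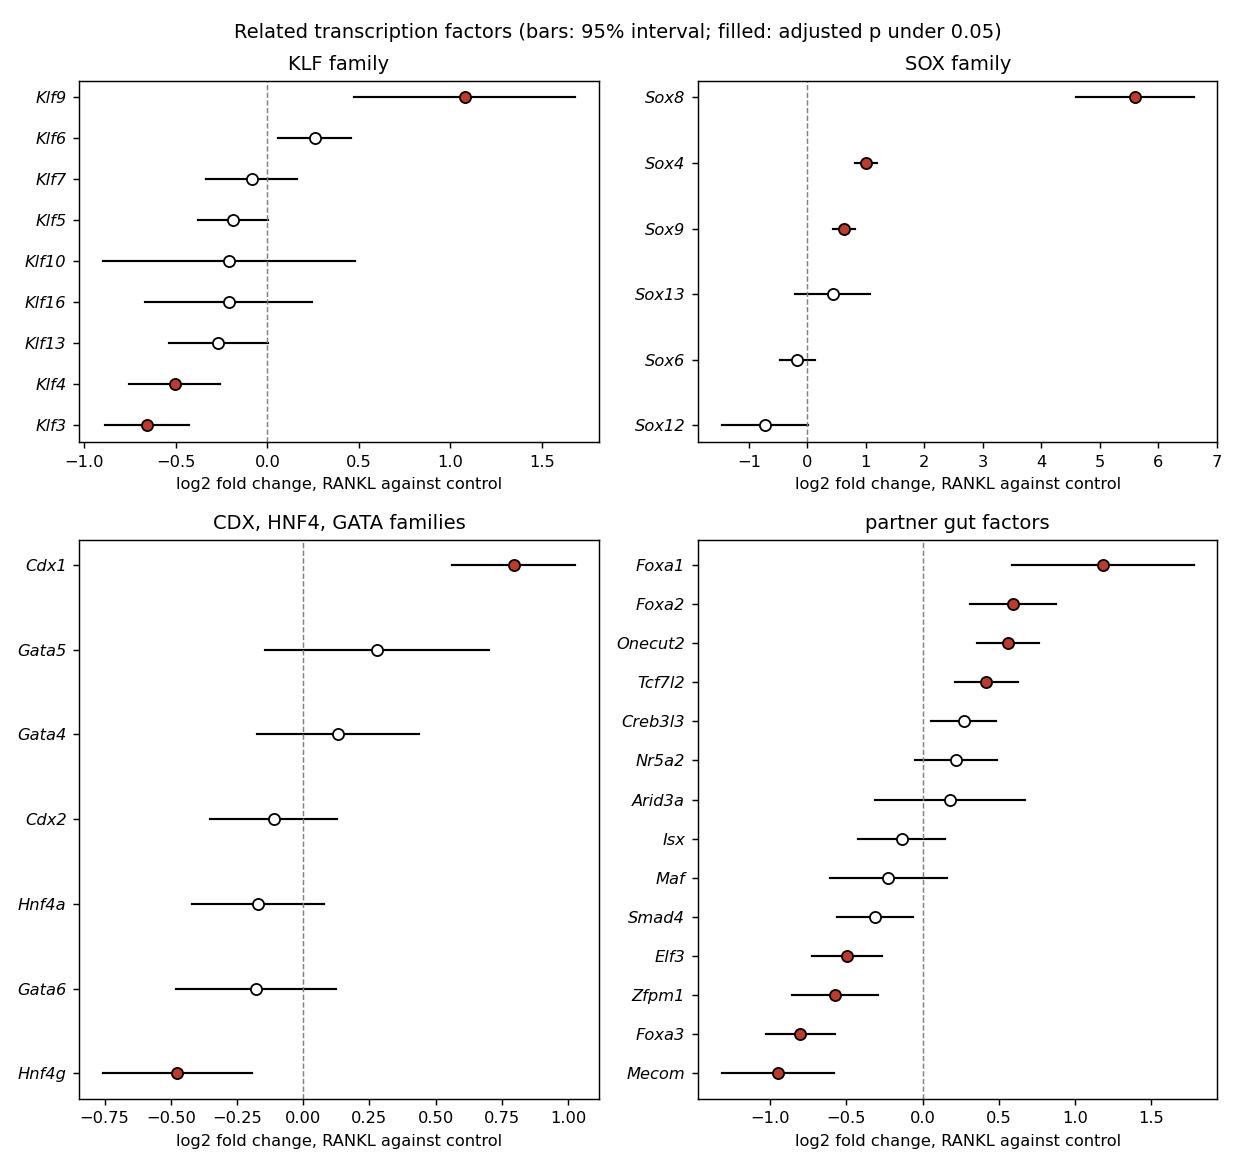
Log2 fold change with 95% interval of tested genes of the KLF, SOX, CDX, HNF4 and GATA families and of partner gut factors, with filled points past an adjusted p of 0.05. The horizontal scale differs between the panels, and the fitted value of Sox8 depends on how its near-zero control counts are handled.

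Genes regarded as targets of each factor were counted in the same fit, as lists compiled from general knowledge and not from binding data in these organoids. Each count stands beside the share of all genes tested, of which 25.9% were called, 13.6% higher and 12.4% lower. The lists are short, and no list was tested as a set. Of 14 CDX2 target genes tested, 4 were higher, 1 lower and 9 not past, with a median log2 fold change of -0.01. Slc26a3, a chloride and bicarbonate exchanger, fell from 168, 162, 193 and 170 CPM to 80.7, 112.9, 67.3 and 83.5 CPM (log2 fold change -1.01, SE 0.13, edgeR adjusted p = 3.1e-07), with no overlap. Heph, which helps export iron, rose (0.57, SE 0.14), as did Cdx1, which is on this list, and the chloride secretion genes Cftr (0.39) and Gucy2c (0.36), the latter named after its value was seen. Cftr missed the threshold without control replicate 3, RANKL replicate 3 or RANKL replicate 4, and Gucy2c without RANKL replicate 4, which left 2 higher genes in place of 4.

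Of 19 HNF4 target genes tested, 4 were higher, 4 lower and 11 not past, with a median log2 fold change of -0.10. Apob and Mttp, which together build lipoprotein particles, fell (-0.61, SE 0.13, and -0.57, SE 0.10). Cdhr5, a protocadherin that links microvilli, rose from 376, 409, 403 and 396 CPM to 679.7, 674.5, 747 and 882 CPM (log2 fold change 0.92, SE 0.10, edgeR adjusted p = 1.5e-08), and the cholesterol transporter Npc1l1 rose by less (0.54, SE 0.14). The number of higher genes was 7 without control replicate 3 and 2 without the 2 shallowest libraries, and the number of lower genes was 2 without RANKL replicate 2.

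Of 9 genes that GATA4 activates in the proximal gut, 2 were higher, Npc1l1 and Apoa1 (0.33, SE 0.10), and 1 was lower, the sterol transporter subunit Abcg8 (-0.41, SE 0.14). All 3 are also HNF4 list genes. The call of Abcg8 was lost without control replicate 3 or without RANKL replicate 1, 2 or 4, where its edgeR adjusted p lay between 0.055 and 0.080, and that of Apoa1 without the 2 shallowest libraries. Without control replicate 2 or 4 the list had 2 lower genes. Its median log2 fold change was -0.18. Of 7 ileal genes that GATA4 holds down, 3 were tested and none passed, with Slc51a at 0.06 and Osr2 at 0.10, although 1 was higher without control replicate 4 or RANKL replicate 2.

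Of 10 KLF4 target genes tested, 1 was higher and 2 lower, with a median log2 fold change of -0.05. Cdkn1a, the cell cycle inhibitor p21, averaged 119 ± 12.9 CPM without and 158 ± 15.0 CPM with RANKL (SD over 4 libraries in each group, log2 change 0.40, SE 0.11), and missed the threshold without RANKL replicate 3 (edgeR adjusted p = 0.057). Spdef (-0.57), a factor of goblet and Paneth cells, and Krt19 (-0.30) had overlapping groups, and each lost its call when single libraries were left out, Spdef for control replicate 3 and RANKL replicates 2 and 4, Krt19 for control replicate 3 and RANKL replicates 1, 3 and 4. Without control replicate 3 or RANKL replicate 4 the number of lower KLF4 targets was therefore 0, and without control replicate 3 or 4 or RANKL replicate 4 the number of higher ones was 2.

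Of 8 KLF5 target genes tested, 4 were lower, none higher and 4 not past, and the median log2 fold change was -0.37. Over all genes tested 12.4% were lower, and 8 genes are too few to set this list apart. Without control replicate 4, 1 was higher. Fgfbp1, which releases fibroblast growth factors from the matrix, fell from 128, 115, 113 and 112 CPM to 42.0, 40.6, 39.1 and 39.0 CPM (log2 fold change -1.56, SE 0.12, edgeR adjusted p = 2.7e-11), with no overlap. Pdgfa (-0.55, SE 0.11) and Elf3 fell as well. Myc averaged 10.5 ± 3.35 CPM without and 5.15 ± 1.26 CPM with RANKL (SD over 4 libraries in each group, log2 change -0.91, SE 0.31, edgeR adjusted p = 0.029), and this call was lost without control replicate 1 or without RANKL replicate 2, 3 or 4, with an edgeR adjusted p of 0.059 to 0.117.

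Of 10 SOX9-dependent genes tested, 2 were higher and 2 lower, with a median log2 fold change of 0.13. Cd24a rose from 61.4, 47.5, 46.1 and 63.6 CPM to 150.1, 152, 138 and 159 CPM (log2 fold change 1.49, SE 0.12, edgeR adjusted p = 5.7e-11), and Tcf7l2 is the other. Defa17, a Paneth cell defensin of a gene family with near-identical copies and therefore uncertain in read assignment, was lower (-0.70, SE 0.14), as was Tle4 (-0.47, SE 0.13).

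**Figure D5:**
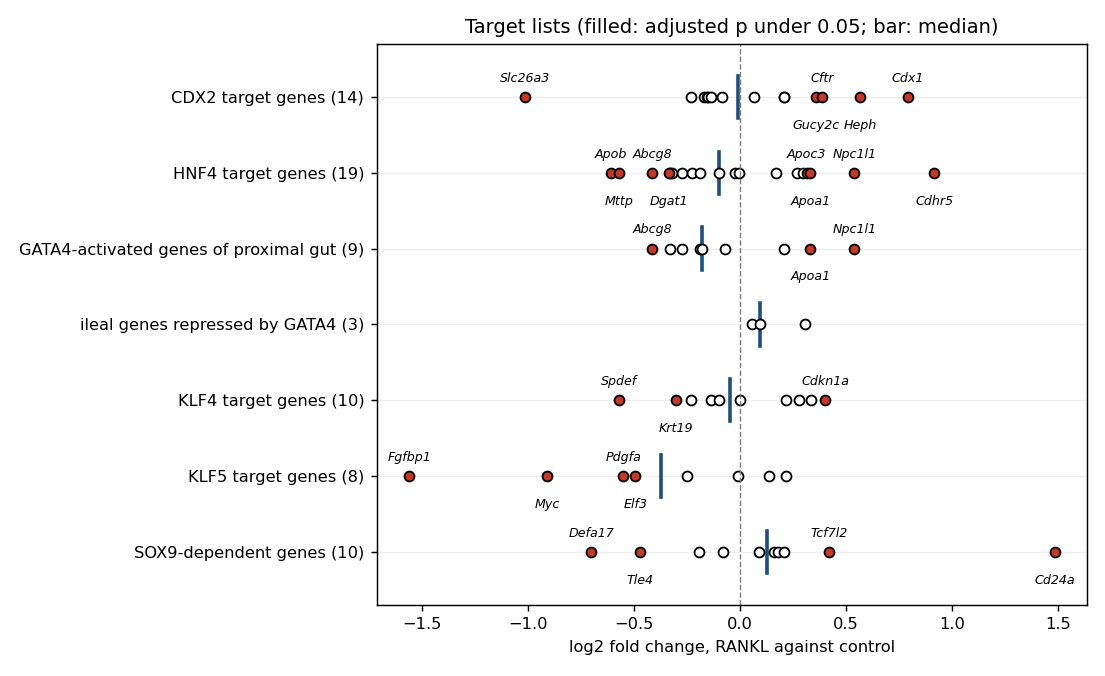
Log2 fold change of each tested gene on the target lists, with filled points past an adjusted p of 0.05, the list's median as a vertical bar and the number of tested genes in parentheses. Calls lie on both sides of 0 for the CDX2, HNF4, GATA4-activated, KLF4 and SOX9 lists and below 0 for the KLF5 list.

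Cell type markers were counted in the same fit, in which 25.9% of all genes tested were called. All 8 tested of 11 M cell markers were higher, and the list summed to 137 to 182 CPM in control and 2170 to 2506 CPM in RANKL libraries, with Gp2 at 0 in all libraries. Sox8, on this list, had 3 counts over the control and 66 over the RANKL libraries, so only the latter carried it past the filter on low counts. For such a gene a higher level is partly built into the selection. Where the filter asked for at least 10 counts in every library, 2 M cell markers were higher in place of 8. The count of 8 therefore depends on the filter. Of 12 stem cell markers tested, 5 were lower and 1 higher, and the summed level went from 2726 to 3226 CPM in control to 2372 to 2509 CPM. The called ones with the largest changes were Lgr5 (log2 fold change -2.22, SE 0.20), Ascl2 (1.10, SE 0.18), Axin2 (-0.90, SE 0.19) and Smoc2 (-0.76, SE 0.13). Of 10 Paneth cell markers tested, 1 was higher and 2 lower, with overlapping sums of 5889 to 7460 and 5762 to 6938 CPM. Of 15 enterocyte markers tested, 1 was higher and 2 lower, with a median log2 fold change of -0.02 and overlapping sums of 5656 to 5977 and 5319 to 6002 CPM. Of 10 goblet cell markers tested, 1 was higher and 1 lower, with a median log2 fold change of -0.02. Their sums, 3079 to 3764 and 3960 to 4311 CPM, were separated mostly through Guca2a, the precursor of guanylin, which rose from 237 ± 52.1 to 795 ± 61.6 CPM (SD, 4 libraries a group). Of 10 enteroendocrine markers, 3 were higher (Cck, Gip and Sct), with overlapping sums of 825.9 to 921.8 and 871 to 991 CPM, and the 1 tuft cell marker tested did not pass, with sums of 18.9 to 27.4 and 20.6 to 32.3 CPM. Of 9 pan-epithelial markers, 1 was higher and 3 lower, with sums of 7739 to 9012 and 7572 to 8324 CPM. The counts for Paneth, goblet and enterocyte markers changed by 1 gene when certain single libraries were left out. The enteroendocrine count was 2 without control replicate 2 or 4 or RANKL replicate 1, 2 or 3, where Sct missed the threshold, and without RANKL replicate 4, where Gip did, and it was 0 with no filter on low counts. The part of these shifts in the changes of Cdx1, Sox9, Klf4 and Hnf4g was not tested.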

How the data were processed

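Gene expression was measured in 4 control and 4 RANKL-treated organoid libraries by 3′ mRNA sequencing with single reads of 50 bases. The authors trimmed the reads, removed abundant sequences, aligned to GRCm38 with STAR and deposited strand-specific featureCounts counts per gene of Ensembl release 94, without normalization. Symbols and positions come from GENCODE M21, which matched 54409 of 54532 identifiers. Totals of 583663 to 7807298 counts per library put the limit that a count of 0 allows (3 counts) at 0.384 to 5.14 CPM. PCR copies are not told apart, so intervals from counts hold counting error alone.

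Counts were tested with edgeR 4.0.16 in R 4.3.3 (TMM, filterByExpr, quasi-likelihood test, Benjamini-Hochberg adjustment over 9971 genes). Intervals of fold changes use the t distribution with the fit's degrees of freedom. Single values were compared by exact two-sided permutation over 70 assignments, and ratios within a library had 0.5 counts added to each gene. The fit was tested on simulated data. DESeq2 1.42.0, limma 3.58.1, other scalings and filters, the replicate number as a block and each library left out were alternatives. Chi-square over degrees of freedom within a group was above 1 for every pair, so no libraries were merged. The 9 genes and 27 lists were chosen with earlier results of these data known. Genes were named by rule: the 9 factors, family members past the threshold, up to 4 called genes of each list with the largest changes and a mean of 5 CPM or more, otherwise the 1 or 2 most abundant, and for each changed factor the gene of most similar pattern. Genes outside it are said to be so. Certain genes are not reported here and were left out of the lists.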

Additional observations from a re-analysis of the deposited data

Results flagged for a closer look

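Of 156 groups of 4 library values tested (the 9 factors, the 4 ratios and the 66 named list genes, except Adipoq, which was at 0 throughout), 9 held a library far from the other 3 by Dixon's criterion, and chance gives about 1 in 20, or 7.8. None of the 9 factors or of the 4 ratios was among them. In RANKL libraries these were Sox4 in replicate 4 (749.7 CPM), Cldn7 in replicate 4 (848.6 CPM), Ascl2 in replicate 1 (27.45 CPM), Pdgfrb in replicate 3 (23.47 CPM) and Fabp4 in replicate 3 (0.5215 CPM). In control libraries they were Npc1l1 in replicate 3 (66.14 CPM), Cck in replicate 2 (84.26 CPM), Gip in replicate 1 (78.94 CPM) and Fabp4 in replicate 3 (0.7603 CPM). The Fabp4 values rest on a few counts.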

How the results depend on the processing

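Every one of the 9 factors kept its direction under all alternatives run, and Cdx1, Sox9 and Klf4 stayed past the threshold. Hnf4g lost its call without RANKL replicate 4, and its log2 fold change ran from -0.60 to -0.36 with each library left out in turn. The differences in ratio ran from -1.03 to -0.82 for Cdx2 to Cdx1, from -0.48 to -0.26 for Gata6 to Gata4, from 0.18 to 0.44 for Klf5 to Klf4 and from -0.50 to -0.14 for Hnf4g to Hnf4a, and the former 3 passed only without control replicate 1. At an adjusted p of 0.01, 1636 genes were called in place of 2587. Leaving out a library gave 1853 to 2601 genes, and leaving out the 2 shallowest, an alternative chosen after seeing the data, gave 2279. Afp, a liver gene that did not pass (0.04), changed sign to -0.0021 with no filter on low counts, -0.016 without control replicate 1, -0.025 without RANKL replicate 1 and -0.049 without the 2 shallowest libraries, and Osr2 to -0.047 without RANKL replicate 2. With each library left out they ran from -0.025 to 0.15 and from -0.047 to 0.25. These values are close to 0 and the cause was not tested. With no filter the median log2 fold change of all genes moved to -0.11. Deviations of same-numbered replicates had correlations of -0.033 to 0.099, and those of differently numbered ones -0.130 to 0.084. These values cannot tell whether same-numbered libraries share a mouse or culture, and the labels give only the number. A fit with the replicate block called 2610 genes, with 4 of the 9 factors past the threshold as before, and the blocked ratios had adjusted exact permutation p-values of 0.25 to 0.375, where the smallest p before adjustment is 0.125, so none could pass.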

Other observations

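Genes of other digestive organs were looked at because the 9 factors hold the intestinal program in place. Of 19 gastric epithelium genes with an identifier, 8 were at 0 in all libraries and 2 were tested. Gkn3, a gastrokine, was at 22.5, 14.0, 20.3 and 25.8 CPM in control and at 0, 2.06, 1.04 and 0.549 CPM in RANKL libraries (log2 fold change -4.20, SE 0.41, edgeR adjusted p = 2.0e-09). It passed the filter on low counts through the control libraries only, so a lower level with RANKL is partly built into its selection. With at least 10 counts required in every library, 0 gastric genes were lower. The fall of this gene alone does not show a change in gastric character. The whole list summed to 80.8 to 102.7 and 74.3 to 97.7 CPM. Most of that sum was Krt7, named after its value was seen, with means of 67.5 CPM in control and 82.0 CPM in RANKL libraries. The sum therefore says little about the other genes of the list. Of 8 colon genes with an identifier, 1 was tested and did not pass (Mptx1, log2 fold change 0.28), Car1, Hoxa13 and Hoxd13 were at 0, and the list summed to 18.2 to 31.96 and 22.6 to 36.0 CPM. Of 9 liver genes, 2 were tested and neither passed (Ttr 0.56, edgeR adjusted p = 0.085), with sums of 34.4 to 41.1 and 41.7 to 51.7 CPM. Without control replicate 1, 1 liver gene was higher, and 1 gastric gene was higher without control replicate 1, 3 or 4 or RANKL replicate 1 or 2. Over all genes tested, 13.6% were higher and 12.4% lower, and these lists hold too few tested genes to be set apart from that share. Adipose markers other than Fabp4 were at 0.

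Fabp6, an ileal bile acid binding protein on the list of genes held down by GATA4, was below the filter on low counts and was chosen after its values were seen. It had 1, 0, 2 and 0 counts in control and 4, 3, 10 and 11 counts in RANKL libraries, a ratio of 25.9 after scaling for depth (exact 95% interval 7.99 to 133, counting error only).

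The genes whose pattern over the 8 libraries was most like that of a changed factor, among 6638 genes at a mean of at least 20 CPM, were 5031439G07Rik for Cdx1 (root mean square difference 0.084 on the log2 scale), Atp2b1 for Sox9 (0.063), Mcm7 for Hnf4g (0.050) and Eif2b5 for Klf4 (0.047).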
